A study of Glycine max with 6 samples.

Results

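Hairy roots of soybean (Glycine max) with a construct that overexpresses GmPHD6 were compared directly with hairy roots that carried an RNAi construct against the same gene. The members are genes: a gene entered if its value was flagged OK in the 3 deposited columns and reached at least 1 FPKM (fragments counted per kilobase of transcript, relative to sequencing depth) with overexpression or with RNAi. This gave 32668 of the 56044 gene models in the table. Of these, 47 lie in a stretch of chromosome 13 between 3083566 and 4226773 and are described apart, and 32621 lie elsewhere. All members are on the 20 chromosomes; 455 gene models on unplaced scaffolds contributed none.

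The overexpression group (GmPHD6-OE) and the RNAi group had 2 libraries each, both in the KF1 background. The construct was delivered by Agrobacterium rhizogenes K599, injected into seedlings of about 1 week at 2 cm above the soil. After injection the seedlings stood in high humidity for about 2 weeks and were then moved to water. Plants were kept at 28 °C on a cycle of 16 h light to 8 h dark, and the hairy roots taken were 2 to 10 cm long. The other group of 2 libraries, K599, is labelled wild type and serves here as a reference level; whether its bacteria carried an empty vector is not stated in the labels. The promoter of either construct, the number of roots or plants behind a library and whether a group's libraries are from separate plants are not stated either. The authors' table holds 1 pooled FPKM value per gene and group, with a lower and an upper bound, so values are given with these bounds and with no SD, n or p-value. The bounds widen as counting error does at low level: they lay 30.7% from the value with overexpression and 30.1% with RNAi at 1 to 3 FPKM (medians over genes), and 4.07% and 3.79% at 100 to 1000 FPKM. Whether they take in any spread between plants is not stated, so a difference past the bounds is not shown to exceed the spread between replicates.

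GmPHD6 belongs to the Alfin-like proteins, a plant family with a C-terminal PHD finger. In Arabidopsis, members of the family bind the tail of histone H3 methylated at lysine 4, a mark of active genes, and Alfin1 of alfalfa binds G-rich DNA elements. RNAi constructs make a double-stranded RNA that the cell cuts into small RNAs, which direct the breakdown of matching transcripts. A hairy root grows from plant cells that took up bacterial T-DNA. The table does not pair its IDs with gene names, and 0 of the IDs could be found in RefSeq's gene table (assembly Glycine_max_v4.0). RefSeq's table has a gene with the symbol PHD6 on chromosome 9, in another assembly, but no ID could be tied to it. The level of GmPHD6 was therefore not analysed here, and the group labels were not checked against the targeted gene. Whether the RNAi roots held less GmPHD6 transcript than K599 is not known from these values, so RNAi below names a construct and not a measured knockdown. Root cell types were not checked against markers. For the same reason 0 of 47 gene lists could be matched, and genes are described below by level, position and neighbourhood.

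A difference is log2(FPKM + 1) with overexpression minus log2(FPKM + 1) with RNAi, a scale on which changes of low genes are understated. The 2-fold rule asked for a difference of at least 1 in size and bounds that did not overlap. Outside the chromosome 13 stretch 281 members were listed at 0 with one construct and got no fold, which left 32340. Of these, 1746 were higher with overexpression (5.40%) and 2127 were lower (6.58%). In bulk roots, fewer cells of a type and less RNA per cell cannot be told apart. Most genes differed little between the constructs. The median difference was -0.022 with quartiles of -0.33 and 0.31, and 67.4% of genes differed by under 0.5. The SD over genes was 0.76.

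**Figure D1:**
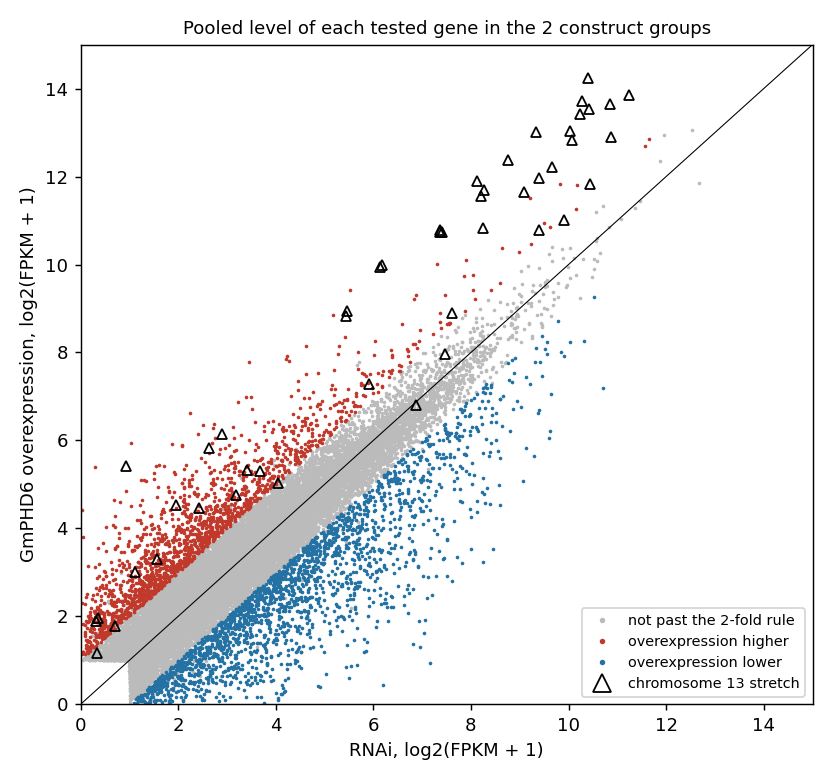
Pooled level of each tested gene with RNAi (x axis) and with overexpression (y axis), both as log2(FPKM + 1), with the line of equal level. Red points are the 1746 genes past the 2-fold rule with overexpression higher, blue points the 2127 with overexpression lower, and open triangles the 47 genes of the chromosome 13 stretch, most of which lie far above the line.

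The steeper the difference, the more often it was the overexpression roots that stood lower. A difference of at least 2 was reached by 333 genes in the higher direction and 633 in the lower, one of at least 3 by 65 and 214, and one of at least 4 by 6 and 47. The excess at 2-fold depended on scaling. The lower side stayed the larger with median-of-ratios scaling (1807 higher, 2076 lower) and with quantile normalization (1870 higher, 2037 lower). When each column was rescaled to its sum outside the chromosome 13 stretch, 2116 genes were higher and 1868 lower, so the larger side turned over. At 4-fold the lower side remained the larger under that rescaling, with 403 genes higher and 572 lower. The RNAi sum used there includes 20072 FPKM from a gene model spanning 102 bases, whose lower bound was 0. The median difference of the called genes was 1.41 for higher and -1.54 for lower genes.

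The 2-fold limit cuts through a smooth distribution. Just inside it, 273 higher genes had differences of 1 to 1.1 and 274 lower genes of -1.1 to -1. Just outside, with separate bounds, 366 genes were higher and 338 lower by 0.9 to 1. The level limit is similar, with 550 genes whose higher value was 1 to 1.1 FPKM and 557 left out at 0.9 to 1 FPKM. A further 9710 genes had separate bounds but differed by less than 2-fold. Separate bounds were thus common. Of all 32340 tested genes, 6354 had them with overexpression higher and 7229 with overexpression lower.

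Glyma.15G211500 on chromosome 15 (32692487 to 32693522, as deposited, annotation Wm82.a2.v1) was the steepest higher gene on this scale among those reaching 5 FPKM. It read 40.8 FPKM with overexpression (bounds 37.4 to 44.2), 0.234 FPKM with RNAi (0 to 0.484) and 24.7 FPKM in K599 (22.3 to 27.1). The RNAi value stood apart from the other columns, and the difference between constructs was 5.08. Glyma.15G062800, also on chromosome 15 (4817476 to 4818233), read 60.5 FPKM with overexpression, 1.04 FPKM with RNAi and 37.9 FPKM in K599, a difference of 4.91. In both genes the order was overexpression, K599, RNAi, with none of the bounds overlapping.

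Glyma.13G186200 on chromosome 13 (29990951 to 29993554) was the steepest lower gene on this scale. It read 0.912 FPKM with overexpression (bounds 0.497 to 1.33), 141 FPKM with RNAi (136 to 146) and 1.57 FPKM in K599 (1.07 to 2.06), a difference of -6.22. Glyma.17G049900 on chromosome 17 (3785987 to 3788223) read 0.345 FPKM with overexpression, 72.2 FPKM with RNAi and 1.58 FPKM in K599, a difference of -5.77. With log2(FPKM + 0.1) their order turned over, at -7.13 for Glyma.13G186200 and -7.35 for Glyma.17G049900. In both genes RNAi was high and the other columns were under 2 FPKM. The bounds of overexpression and K599 overlapped for Glyma.13G186200 and did not for Glyma.17G049900. The functions of these 4 genes are not annotated in the sources used here.

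Among the 50 steepest genes per direction with at least 5 FPKM, the side that stood out was usually RNAi. The 50 higher genes had a median of 41.9 FPKM with overexpression, 2.45 FPKM with RNAi and 19.4 FPKM in K599. The 50 lower genes had a median of 3.60 FPKM with overexpression, 103 FPKM with RNAi and 6.36 FPKM in K599. Each set was spread over 18 chromosomes, with at most 9 genes on one, chromosome 15 for the higher set and chromosome 7 for the lower. K599 was nearer to overexpression than to RNAi for 41 of the 50 higher and 45 of the 50 lower genes.

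The same held across all called genes. K599 was not used to choose them and is given as a description, with the caution that genes chosen for the distance between 2 columns tend to have any other column between them. Of the 1746 higher genes, K599 lay between the constructs in 1100, above both in 611 and below both in 35. Of the 2127 lower genes it lay between them in 1614, below both in 480 and above both in 33. K599 was nearer to overexpression in 86.2% of the higher and 85.4% of the lower genes. On the way from RNAi, set at 0%, to overexpression, at 100%, the median K599 position was 87.8% (quartiles 65.9% and 109%) for higher and 82.6% (63.6% and 98.1%) for lower genes.

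**Figure D2:**
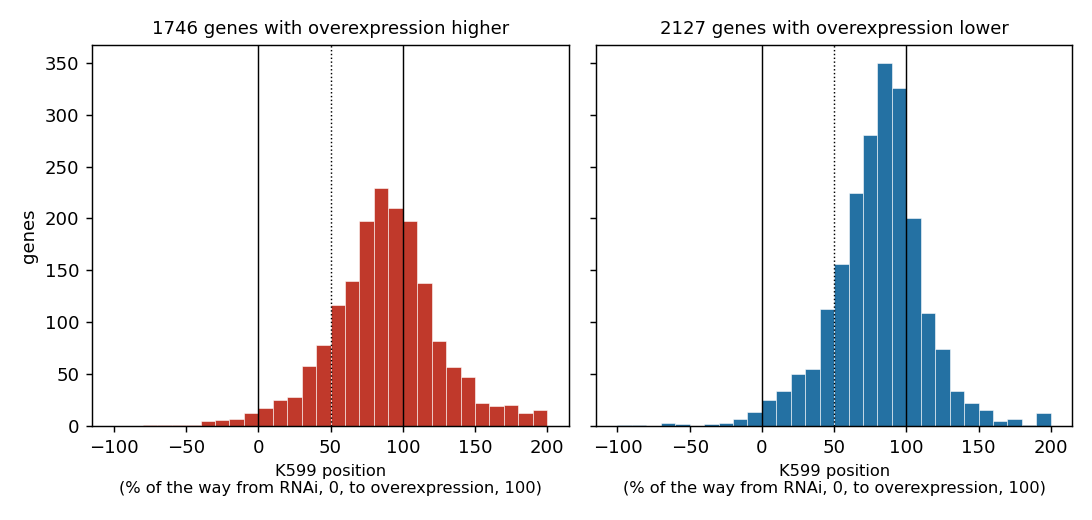
Position of the K599 level on the log2(FPKM + 1) scale, as a percentage of the way from RNAi (0) to overexpression (100), for the 1746 higher genes (left) and the 2127 lower genes (right). Bars count genes, values beyond the axis are in the end bars, and most genes lie to the right of the dotted line at 50%, that is, nearer to overexpression.

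Stated as distances, the median gap between overexpression and K599 was 0.35 for higher and 0.36 for lower genes, against 1.28 and 1.30 between RNAi and K599. The authors' bounds of K599 overlapped those of overexpression alone in 803 of the higher genes (46.0%) and 1126 of the lower genes (52.9%). They overlapped those of RNAi alone in 106 (6.07%) and 103 (4.84%). K599 stood between the constructs with all bounds apart in 540 higher (30.9%) and 713 lower genes (33.5%). K599 bounds lay above both constructs in 251 higher genes (14.4%), and below both in 125 lower genes (5.88%). The rule chose genes with the bounds of the constructs apart. These counts of bounds were not made over all tested genes, so they have no share to be set against. The spread between the RNAi libraries was not separated from the pooled column, so its part in these counts was not tested.

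The called genes, 5.40% (higher) and 6.58% (lower) of those tested, carried a part of each column's summed FPKM. The 1746 higher genes summed to 94514 FPKM with overexpression, 14.1% of that column outside the chromosome 13 stretch, against 31157 FPKM with RNAi (4.26%) and 72824 FPKM in K599. The 2127 lower genes summed to 30309 FPKM with overexpression (4.51%), 116240 FPKM with RNAi (15.9%) and 37303 FPKM in K599. The sums changed 3.03 times and 3.84 times between constructs. A change of more than 2-fold is set by the rule that chose these genes. In each direction K599, which the rule does not use, stood nearer to the overexpression sum.

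Of 48 tested genes with at least 1000 FPKM in one construct, 13 were higher with overexpression and 4 lower. Over all tested genes the shares were 5.40% and 6.58%. This class is set by the compared values, so a gene can enter it through the construct where it is high. Nothing is read from its counts. With columns rescaled to their sums outside the chromosome 13 stretch, and with median-of-ratios scaling, 14 were higher and 4 lower. After quantile normalization 6 were higher and 21 lower of 50. That normalization was run with the abundant genes of the stretch still in the columns, and their part in the change was not tested. The 13 genes lie on 9 chromosomes and ran from 1036 to 7378 FPKM with overexpression, from 157 to 3209 FPKM with RNAi and from 453 to 4645 FPKM in K599. Together they held 5.44% of the overexpression column outside the stretch and 1.83% of the RNAi column. K599 was nearer to overexpression in 6 of these 13. The 4 lower genes ran from 145 to 613 FPKM with overexpression, from 1044 to 1668 FPKM with RNAi and from 246 to 552 FPKM in K599. Of the 1746 higher and 2127 lower genes, 117 and 289 read 100 to 1000 FPKM in the higher construct. That class is set by the compared values and its tested genes were not counted, so no share is given.

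The share of genes higher with overexpression was larger at higher levels in K599. The rule itself passes fewer low genes, through log2(FPKM + 1) and the wider bounds at low level. K599 was also nearer to overexpression in most called genes, so classes by K599 tend to sort higher and lower genes apart. How much of the shares below comes from this was not tested. At 100 FPKM or more in K599, 12.2% of 920 genes were higher with overexpression and 7.50% lower. At 10 to 30 FPKM the shares were 7.05% and 6.07% of 7771 genes. Under 1 FPKM in K599 they were 2.48% and 15.5% of 1811 genes. Genes this low in K599 entered only through at least 1 FPKM in a construct, so called differences there are partly built in and nothing is read from the shares under 1 FPKM.

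Short gene models differed more than long ones. Of 2037 genes spanning under 1000 bases, 12.2% were higher and 12.7% lower, and the SD of the difference was 1.18. Of 4457 genes spanning 8000 bases or more, 1.93% were higher and 2.29% lower, with an SD of 0.48. The median span was 2329 bases for higher, 2544 bases for lower and 3870 bases for all tested genes. A span counts introns as well as exons. Gene models that share a locus with another made up 3.84% of higher, 4.37% of lower and 6.83% of all tested genes.

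**Figure D3:**
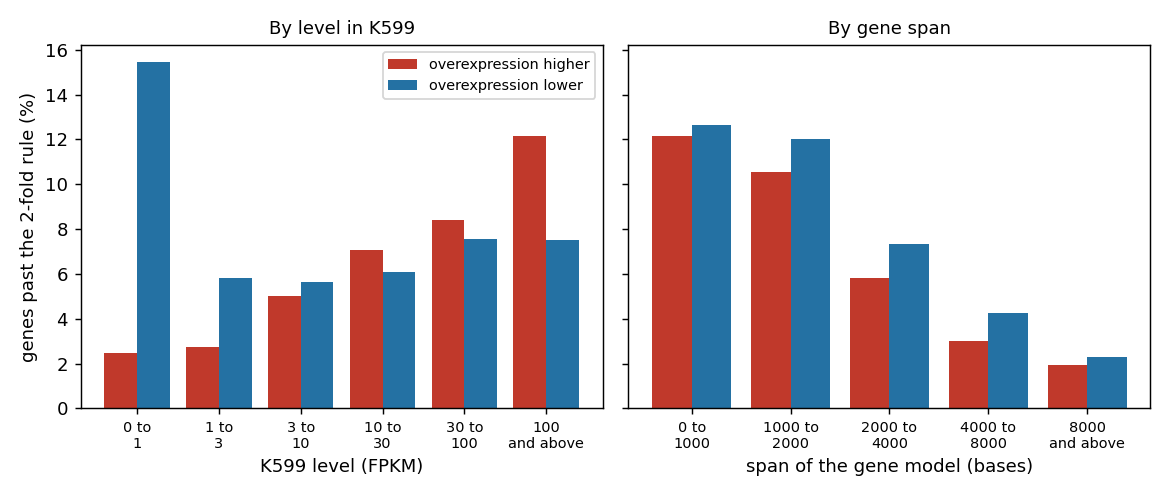
Percentage of tested genes past the 2-fold rule, by FPKM in K599 (left) and by span of the gene model in bases (right), with overexpression higher in red and lower in blue. Shares fall from over 12% in each direction under 1000 bases to about 2% at 8000 bases or more.

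Chromosome 2 had the lowest median difference of the 20 chromosomes, outside the range of the other 19. Its 1814 tested genes had a median difference of -0.14, against -0.044 to 0.014 for the other chromosomes, and 61.4% of its genes read below 0, against 49.2% to 54.3%. Past the 2-fold rule, 4.69% of its genes were higher and 8.88% lower, against 5.44% and 6.44% of the 30526 genes elsewhere. The offset is thus a small shift of the median, along with a larger share of genes past the rule in the lower direction. It was measured after the chromosome shares had been seen, and it is a description of the pooled columns.

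Windows of 100 neighbouring tested genes showed where the offset lay. Of 323 windows on all chromosomes, 8 of the 10 with the lowest median were on chromosome 2. Medians under -0.15 occurred in 9 of its 18 windows and in 5 of the 305 elsewhere. The lowest lay at the start of the chromosome, between 2247 and 1327756, with a median of -0.28 and 68 of 100 genes below 0. Near the other end, 75 of 100 genes between 46031033 and 47240495 were below 0, with a median of -0.25. Further in, the offset was not seen in the windows between 11090977 and 15211114, which had medians of 0.066 and 0.049. The next window, between 15245871 and 25306884, had a median of -0.12 with 59 of 100 genes below 0.

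**Figure D4:**
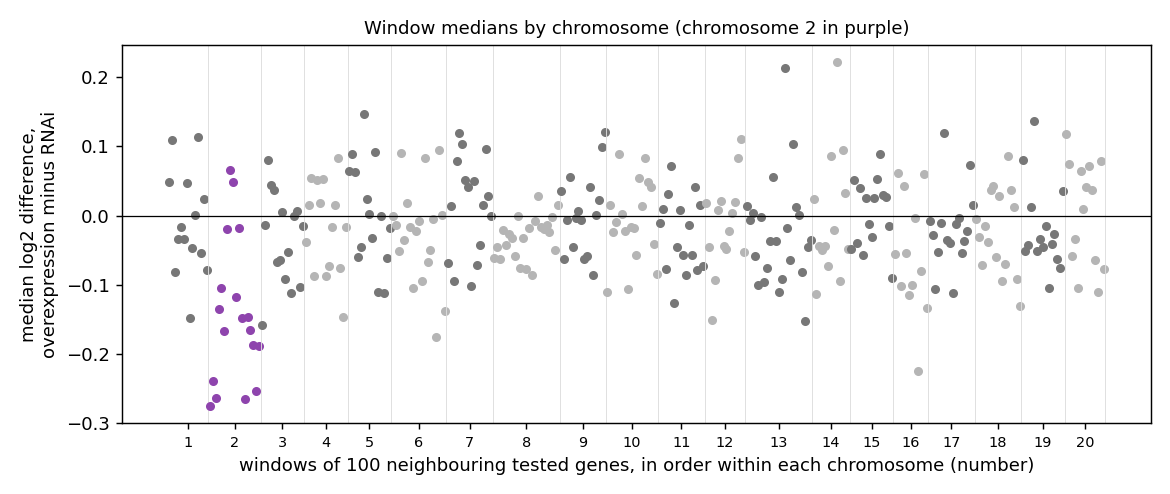
Median log2 difference (overexpression minus RNAi, on the log2(FPKM + 1) scale) in 323 windows of neighbouring tested genes, in order along each numbered chromosome. The purple windows of chromosome 2 reach -0.28 at its start and -0.25 near its other end, with some windows further in above 0.

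The offset of chromosome 2 was read mainly in the overexpression column. Overexpression minus K599 had a median of -0.095 there, against 0.0050 to 0.054 on the other chromosomes. RNAi minus K599 had a median of 0.054 there, within the 0.033 to 0.082 of the other chromosomes. These differences share the K599 column and are given side by side only. Among 534 chromosome 2 genes with at least 10 FPKM in the 3 columns, overexpression minus RNAi was -0.176. The other chromosomes had -0.126 to -0.036 at that level, so the gap to the nearest was narrower than among all tested genes. Overexpression minus K599 was -0.10 in the 534 genes, against 0.0060 to 0.066 on the other chromosomes. RNAi minus K599 was 0.088 in these genes, just under the 0.091 to 0.18 of the others. Which overexpression library carried the offset cannot be read from a pooled column.

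Genes past the rule also lay next to each other on other chromosomes. There were 28 runs of at least 3 neighbouring tested genes with overexpression higher (99 genes) and 40 with overexpression lower (139 genes), and the longest held 6 genes. Another gene model shares the locus of 14 of these 238 genes; copies elsewhere in the genome that could share fragments were not looked for. The K599 sum lay between the construct sums in 22 of the 28 higher and 35 of the 40 lower runs.

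A run of 5 higher genes on chromosome 19 (30653379 to 30722158) stood at a summed 1496 FPKM with overexpression, 290 FPKM with RNAi and 707 FPKM in K599. Each of the 5 had overexpression highest, K599 in the middle and RNAi lowest. The most abundant of them (30721227 to 30722158) read 1036 FPKM, 157 FPKM and 453 FPKM in overexpression, RNAi and K599. On chromosome 15, 3 short genes between 4423952 and 4431198 moved by nearly the same amount, with differences of 3.58, 3.69 and 3.64. Their sum was 598 FPKM with overexpression, 44.9 FPKM with RNAi and 405 FPKM in K599. Further along the same chromosome, a run of 4 genes between 4794550 and 4818233 ends with Glyma.15G062800.

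Other higher runs had K599 on the RNAi side. On chromosome 13, 3 genes between 39903117 and 39911395 summed to 79.5 FPKM with overexpression, 4.37 FPKM with RNAi and 9.26 FPKM in K599. Most of that came from 1 gene (39910645 to 39911395) with 58.6 FPKM in overexpression, 3.24 FPKM in RNAi and 0.705 FPKM in K599. Another of them (39903117 to 39903837) read 13.9 FPKM in overexpression, 0.713 FPKM in RNAi and 3.32 FPKM in K599, with K599 above RNAi. Genes of a run move the same way between constructs by definition. In this run they differed in where K599 stood.

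On chromosome 10, a run of 3 genes between 2443151 and 2455732 showed overexpression and K599 side by side. The first gene read 29.0 FPKM with overexpression, 4.20 FPKM with RNAi and 42.8 FPKM in K599. In the second, overexpression (12.52 FPKM) and K599 (12.51 FPKM) were level and RNAi read 1.84 FPKM. The third read 2.53 FPKM with overexpression, 0.394 FPKM with RNAi and 2.89 FPKM in K599. RNAi was the low column at each of them.

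Among lower runs, 5 genes on chromosome 16 between 33896631 and 33930566 summed to 135 FPKM with overexpression, 925 FPKM with RNAi and 265 FPKM in K599. Their differences ran from -3.10 to -2.00. At 4 of them K599 stood between the constructs; at the fifth (33905053 to 33906076) it read 6.03 FPKM, above the 5.26 FPKM of RNAi and the 0.559 FPKM of overexpression. On chromosome 8, 4 genes between 8384741 and 8399751 differed by -2.87 to -2.43, at a summed 24.3 FPKM with overexpression, 191 FPKM with RNAi and 42.5 FPKM in K599. Neighbours in this run moved by similar amounts although their RNAi levels ranged from 12.5 to 110 FPKM.

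The run on chromosome 2 between 2138735 and 2160738 lies in one of the low windows of that chromosome. Its 5 genes summed to 33.9 FPKM with overexpression, 268 FPKM with RNAi and 77.8 FPKM in K599, with differences of -3.57 to -1.28. These are far larger than the offset of the chromosome. On chromosome 5, 3 genes between 32006416 and 32013462 summed to 5.43 FPKM with overexpression, 101 FPKM with RNAi and 9.16 FPKM in K599. The steepest of them (32006416 to 32009266) read 4.48 FPKM with overexpression, 81.4 FPKM with RNAi and 7.58 FPKM in K599.

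The 6 genes of a lower run on chromosome 17 (5016278 to 5042804) shared an order with 1 exception. The first gene (5016278 to 5017851) read 32.6 FPKM with overexpression and 67.5 FPKM with RNAi, both above the 5.97 FPKM of K599. The other 5 genes, from 5020763 on, each read lowest with overexpression, highest with RNAi and in the middle in K599. One of these (5032682 to 5034197) read 1.27 FPKM, 21.9 FPKM and 6.14 FPKM in that order.

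**Figure D5:**
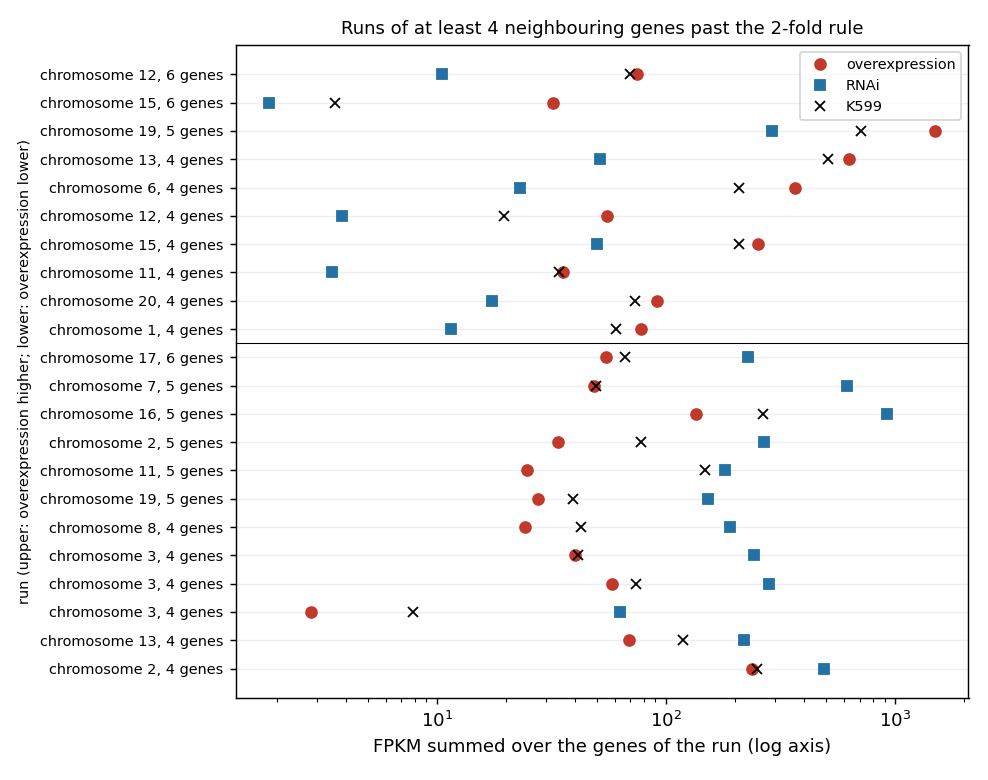
FPKM summed over the genes of each run of at least 4 neighbouring genes past the 2-fold rule, on a log axis, with overexpression as red circles, RNAi as blue squares and K599 as black crosses. The 10 runs above the line are higher and the 12 below it lower with overexpression; in most of them the cross lies nearer to the circle than to the square.

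Outside the chromosome 13 stretch, 174 genes were listed at 0 with overexpression and at 1.00 FPKM or more with RNAi, and 107 were listed at 0 with RNAi. An exact 0 can be a failed estimate, so no fold is given. The median level in the other construct was 2.40 FPKM and 2.98 FPKM, and 48 and 36 genes had at least 5 FPKM there. K599 was also listed at 0 in 69 of the 174 and 50 of the 107. These gene models are short, with median spans of 526 and 556 bases, and 45 and 25 of them share a locus with another. The highest value among them was 20072 FPKM with RNAi, in a model spanning 102 bases, but its bounds ran from 0 to 76513 FPKM.

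In the chromosome 13 stretch 43 of the 47 members were higher with overexpression and 0 lower, against 5.40% and 6.58% of tested genes elsewhere. Members there ran from 1.23 to 19499 FPKM with overexpression, from 0.250 to 2399 FPKM with RNAi and from 0.0927 to 1506 FPKM in K599. RNAi was above K599 in 44 of the 47, and overexpression was above both in 46. The medians were 1706 FPKM with overexpression, 168 FPKM with RNAi and 99.4 FPKM in K599, and the median difference was 2.59. The 47 genes took 19.3% of the overexpression column and 2.92% of the RNAi column, a summed level 7.32 times as high. The 4 that did not pass had differences of -0.076 to 0.99. The stretch was first drawn around genes higher with overexpression than in K599, so the direction is set in part by that choice, and 17 of the 47 share a locus.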

How the data were processed

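RNA was sequenced from hairy roots in 3 groups of 2 libraries. The authors deposited FPKM values with a lower and an upper bound and a status flag, 1 per gene and group, per the file headers. The submitters' processing notes name TopHat, a splice-aware aligner. Its version, how FPKM was computed, the confidence behind the bounds and strandedness are absent from the sources used here. Gene IDs carry the tag Wm82.a2.v1. The column labelled G6 was read as GmPHD6-OE. Depth per library is not in the table; the bounds stand in for it.

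From these values log2(FPKM + 1) differences were computed in Python 3.11.15 with pandas 2.3.3 and numpy 2.4.6. Genes needed an OK flag in 3 columns and 1 FPKM in one construct. The rule of size (2-fold, bounds apart) gives no p-value, and no test across libraries was run. Named genes are the 2 per direction with the largest difference among called genes that reach 5 FPKM in a construct, which is the rule for a table without names. The 47 gene lists and the promoter motifs, written for named genes, could not be used, and no sequence is shown. The members, lists and rules were chosen with earlier results of these data known. The chromosome windows, the steepest 50 and the level and span classes were added after seeing the data. Alternatives covered pseudocounts, level filters, scalings, the fold, the bounds and shared loci.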

Additional observations from a re-analysis of the deposited data

How the results depend on the processing

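Of 88 recomputed counts, shares and medians under 13 settings, 70 stayed within 1.5 times (counts), 0.1 (medians) or the 95% Wilson interval of the main share. Without a minimum level the called genes cannot change, since a difference of 1 on this scale needs at least 1 FPKM. Their counts and K599 shares under that setting were fixed in advance and are among the 70. The 4-fold rule left 333 higher and 633 lower genes, 403 and 572 with columns rescaled to their sums outside the chromosome 13 stretch, and 343 and 617 with median-of-ratios scaling; the last pair of settings was chosen after seeing the data. It left 6 higher and 10 lower runs. With log2(FPKM + 0.1), which enlarges differences of low genes by construction, there were 48 higher and 69 lower runs. Rescaling to sums outside the stretch moved the median over all genes from -0.022 to 0.080. The share of higher genes with K599 nearer to overexpression, 86.2%, became 88.3% at 4-fold, 88.1% with that rescaling, 84.3% without a condition on bounds and 84.1% with the stretch included. The share of lower genes, 85.4%, became 88.6% at 4-fold, 82.9% after quantile normalization and 82.8% with that rescaling; the cause was not tested. The offset of chromosome 2 against the other chromosomes was -0.12, and -0.17 to -0.09 under the alternatives. Of 20 recomputed differences of the 4 named genes, 0 changed sign. These genes were chosen for the largest differences and a pseudocount cannot change a sign, so nothing is read from this count. No paired analysis was possible because the deposited columns pool the replicates and carry no replicate number, and leaving out a replicate was not run for the same reason.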
